A study of Mus musculus with 10 samples.

Results

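A set of 10 genes through which the kidney's collecting duct moves water and sodium were followed across mouse kidneys and RNA preparations: Avpr2, Aqp2, Aqp3, Aqp4, Scnn1a, Scnn1b, Scnn1g, Hsd11b2, Fxyd4 and Rnf183. The members are all 13 probe sets, of 22690 on the array, that the platform annotation assigns to 1 of these 10 symbols. Aqp3 has 3 probe sets, Aqp4 has 2 and each other gene has 1. The first 9 genes were named for their place in the duct. Rnf183 was added because its signal was lower in contralateral kidneys in an earlier look at the same arrays, so its difference between kidneys is described here without a test. All 13 probe sets passed the filter on dim probe sets, which left 13575 probe sets tested.

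The collecting duct follows the last segment of the nephron. Vasopressin binds its receptor on principal cells, which raises cyclic AMP and brings aquaporin-2 water channels to the luminal membrane, and water leaves through aquaporin-3 and aquaporin-4 on the opposite side. Aldosterone raises sodium uptake through the epithelial sodium channel ENaC, which is built from an alpha, a beta and a gamma subunit, while the enzyme encoded by Hsd11b2 keeps glucocorticoids from occupying the aldosterone receptor. FXYD4 is a regulator of the sodium pump, and RNF183 is a ubiquitin ligase found mainly in the inner part of the kidney, where cells face high salt and urea.

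All kidneys came from male C57/BLACK6 mice aged 7 weeks, of about 20 g. Normal mice received 2 intraperitoneal injections, 1 h apart, of 200 µM 4-thiouridine (s4U, a modified nucleoside that marks newly made RNA) with tritiated cytidine in 1 ml of saline, and their kidneys were taken 2 h after the first injection. In the contralateral group the left renal artery and vein were clamped for 45 min under ether anaesthesia. The same injections followed 1 h and 2 h after the clamp was opened, and the other, unclamped kidney was taken at 3 h. Clamping of the opposite kidney, anaesthesia, surgery and the later sampling therefore cannot be told apart in any comparison of the kidneys, and no sham-operated group was analysed here.

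The 10 arrays form 6 groups. For either kidney, total RNA and amplified total RNA were each measured on 2 arrays, titled as biological replicates, and newly transcribed RNA, the part that carries s4U, on 1. Each deposited value is an intensity, given here as normalized log2 signal, log2(intensity + 11.8) after quantile normalization, so that 1 unit is a 2-fold difference and changes of dim probe sets are understated. A probe set is said to have risen or fallen where limma's adjusted p (Benjamini-Hochberg over all 13575 probe sets) was under 0.05, and the standard error from limma follows each ± sign. Where groups are said not to overlap, that describes these arrays only, and the share of all probe sets without overlap was not counted. Newly transcribed RNA, with 1 array per kidney, cannot show overlap between the kidneys. Array medians of the deposited values spanned 18.6 to 70.3, with the lowest in contralateral newly transcribed RNA. The ratio of the 3' to the 5' control probe set of Gapdh, a common check of how far labelled RNA reaches from its 3' end, was 0.938 and 0.973 in normal total RNA, 1.035 and 1.12 in contralateral total RNA, 4.21 to 6.23 in amplified RNA, and 12.7 and 68.9 in normal and contralateral newly transcribed RNA. Those ratios separate the preparations and, within total and newly transcribed RNA, also the kidneys, and their part in the differences below was not tested.

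Summed over the probe set of highest mean per gene, the members took between 0.0474% and 0.0745% of an array's deposited signal, with the lowest share on the normal newly transcribed array. In bulk RNA of a whole kidney, fewer cells of a type and less RNA per cell cannot be told apart. Aqp2, a defining marker of principal cells, gave deposited intensities of 214 to 1331.4 over the 10 arrays, above the median of every array. Levels of different probe sets are not compared, because the probes bind with different strength.

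Avpr2, the vasopressin receptor and the entry to the pathway, did not pass in any comparison of the kidneys. Its signal was 6.62 and 6.76 in normal total RNA against 6.52 and 6.69 in contralateral total RNA, and the 2 ranges overlapped. In amplified RNA all 4 arrays lay between 6.94 and 6.96. The contralateral difference was -0.09 ± 0.14 in total RNA (adjusted p = 0.841) and 0.00 ± 0.14 in amplified RNA (adjusted p = 0.999). Newly transcribed RNA differed from this picture: the contralateral array stood at 7.72, the highest of all 10 arrays, and the normal array at 6.65, a 2.10-fold difference between 2 single arrays. Before normalization the order was the other way, with deposited intensities of 83.7 in the contralateral and 158 in the normal kidney.

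Aqp2, the water channel that vasopressin controls, had higher group means in contralateral kidneys in each preparation, but no comparison of the kidneys passed. Total RNA gave 8.69 and 9.17 in normal and 9.59 and 9.20 in contralateral kidneys, and amplified RNA gave 9.31 and 9.80 against 10.08 and 9.99. The newly transcribed arrays gave 8.23 in the normal and 8.97 in the contralateral kidney. Before normalization that last order was the other way, with deposited intensities of 513.9 in the normal and 214 in the contralateral kidney. Mean deposited intensities were 572.95 in normal and 570.75 in contralateral total RNA, and 851.45 and 1077.9 in amplified RNA. In total and amplified RNA the contralateral arrays lay above the normal ones with no overlap, although in total RNA the gap between the nearest arrays was narrow. The differences were 0.47 ± 0.20 in total RNA (adjusted p = 0.297), 0.48 ± 0.20 in amplified RNA (adjusted p = 0.155) and 0.53 ± 0.15 over all preparations (adjusted p = 0.186), and the single newly transcribed pair differed by 0.74. The contralateral differences in amplified and total RNA themselves differed by 0.01 ± 0.28. The order of Aqp2's group means, from the highest, was contralateral amplified, normal amplified, contralateral total, contralateral new, normal total and normal new RNA. Normal amplified and contralateral total RNA overlapped, and the lone contralateral new array lay within the range of normal total RNA.

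The 250 bases before the Aqp2 start are shown because the gene is the known target of vasopressin and cyclic AMP. The sequences here are RefSeq's for GRCm38.p6, written 5' to 3' on the strand of the gene. Such windows were read for 7 of the 10 members, with 2 for Rnf183. No window was read for Aqp4, Scnn1a and Hsd11b2, which does not show that RefSeq has none. Capitals mark matches to 4 motifs searched on both strands: TGACGT, part of the site for cyclic AMP response factors; TGGAAA, the core of the tonicity response site; AGAACA, part of the site shared by steroid receptors; and TATAAA. In the Aqp2 window, chr15:99578806-99579055 on the + strand, TGACGT was matched on the reverse strand 212 bases before the start and AGAACA on the gene's strand 179 bases before it.
Aqp2: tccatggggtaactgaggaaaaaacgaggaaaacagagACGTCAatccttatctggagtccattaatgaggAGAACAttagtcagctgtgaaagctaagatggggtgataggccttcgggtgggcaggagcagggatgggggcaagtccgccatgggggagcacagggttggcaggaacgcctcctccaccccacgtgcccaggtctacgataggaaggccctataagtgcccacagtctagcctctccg
Of all 32851 windows of this length in the same table, 6.47% held TGACGT and 16.1% held AGAACA. Such a match is a description of letters only, not a binding site.

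Aqp3, the water channel through which water leaves principal cells, gave different answers from its 3 probe sets. In total RNA each of the 3 had higher contralateral than normal arrays without overlap, by 0.22 ± 0.29 for 1422007_at, 0.45 ± 0.21 for 1422008_a_at and 0.27 ± 0.16 for 1450460_at, and none passed (adjusted p = 0.778, 0.359 and 0.479). In amplified RNA the same 3 probe sets had lower contralateral means, and 1422008_a_at fell, where 6.22% of all probe sets fell and 4.10% rose. The difference of 1422007_at in amplified RNA turned to 0.25 without contralateral amplified array 1. The newly transcribed pair was lower in the contralateral kidney for all 3, but with cyclic loess in place of quantile normalization the difference of 1422007_at turned to 0.37, from deposited intensities of 11.1 and 0.6.

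The 1422008_a_at signal was 5.93 and 5.62 in normal total RNA and 6.12 and 6.33 in contralateral total RNA. In amplified RNA it was 6.35 and 6.47 in normal kidneys against 5.12 and 5.57 in contralateral ones. The newly transcribed arrays gave 6.24 in the normal and 3.82 in the contralateral kidney. The groups were thus separate in both replicated preparations, in opposite directions. The fall in amplified RNA was -1.07 ± 0.21 (2.09-fold lower, adjusted p = 0.00909), the newly transcribed pair differed by -2.41 (5.33-fold lower), and the contralateral effect in amplified RNA differed from that in total RNA by -1.51 ± 0.30 (adjusted p = 0.0152). Of all probe sets, 3.82% were lower and 0.641% higher in that last comparison. The call of 1422008_a_at there held in 13 of 18 alternatives. The newly transcribed difference ranged from -4.29 with an offset of 1 to -1.49 with an offset of 32. Deposited intensities behind the low values were dim: 14.6 and 41.2 in contralateral amplified RNA and 1.10 on the contralateral newly transcribed array, against 109.5 on the normal one. The fall in amplified RNA was lost when normal amplified array 1 or 2 or contralateral amplified array 1 was left out (adjusted p = 0.0573, 0.0919 and 0.0522). The difference between preparations was lost without normal amplified array 1 or 2, normal total array 2 or contralateral total array 2 (adjusted p = 0.0597, 0.0857, 0.0756 and 0.0665), with values from -1.58 to -1.36.

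The other 2 Aqp3 probe sets had smaller differences. For 1450460_at, amplified RNA gave 8.93 and 9.08 in normal and 8.80 and 8.29 in contralateral kidneys, and the newly transcribed arrays gave 9.08 and 8.48. Its contralateral difference in amplified RNA was -0.46 ± 0.16 (adjusted p = 0.107), and it passed only when contralateral amplified array 1 was left out (-0.71, adjusted p = 0.0173). Total RNA gave 7.77 and 7.72 in normal and 8.14 and 7.89 in contralateral kidneys. For 1422007_at, the signal was 6.80 and 6.96 in normal and 7.20 and 7.00 in contralateral total RNA. It was far lower in amplified RNA, at 4.75 and 4.47 in normal and 3.92 and 4.86 in contralateral kidneys, which overlapped, and it was 4.27 and 3.70 in the newly transcribed arrays. The difference in amplified RNA was -0.23 ± 0.29 (adjusted p = 0.681), and with an offset of 1 in place of 11.8 this probe set did not pass the filter.

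Aqp4, the second exit channel for water, also split by probe set. For 1425382_a_at, total RNA gave 5.84 and 5.98 in normal and 6.60 and 6.39 in contralateral kidneys, while amplified RNA gave 5.48 and 5.62 against 5.15 and 4.69. The newly transcribed arrays gave 5.17 in the normal and 4.22 in the contralateral kidney. The groups did not overlap in either replicated preparation, higher in contralateral total RNA and lower in contralateral amplified RNA. Neither difference passed (0.59 ± 0.22, adjusted p = 0.233, and -0.63 ± 0.22, adjusted p = 0.0949), but the difference between them did, at -1.21 ± 0.31 (adjusted p = 0.0488). This last call held in 6 of 18 alternatives. That call ended on leaving out any 1 of 7 of the 8 replicated arrays (normal amplified 1 and 2, contralateral amplified 2, and all 4 total RNA arrays), with adjusted p from 0.0961 to 0.195.

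The other Aqp4 probe set, 1434449_at, did not repeat that pattern. Its signal was 6.44 and 6.83 in normal and 6.66 and 6.48 in contralateral total RNA, 6.02 and 6.24 in normal and 6.69 and 6.48 in contralateral amplified RNA, and 6.19 and 5.88 in the newly transcribed arrays. The contralateral arrays were higher without overlap in amplified RNA only, by 0.45 ± 0.18 (adjusted p = 0.154), and the total RNA groups overlapped. Its difference between preparations was 0.52 ± 0.26 (adjusted p = 0.340), opposite in sign to that of 1425382_a_at.

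**Figure D1:**
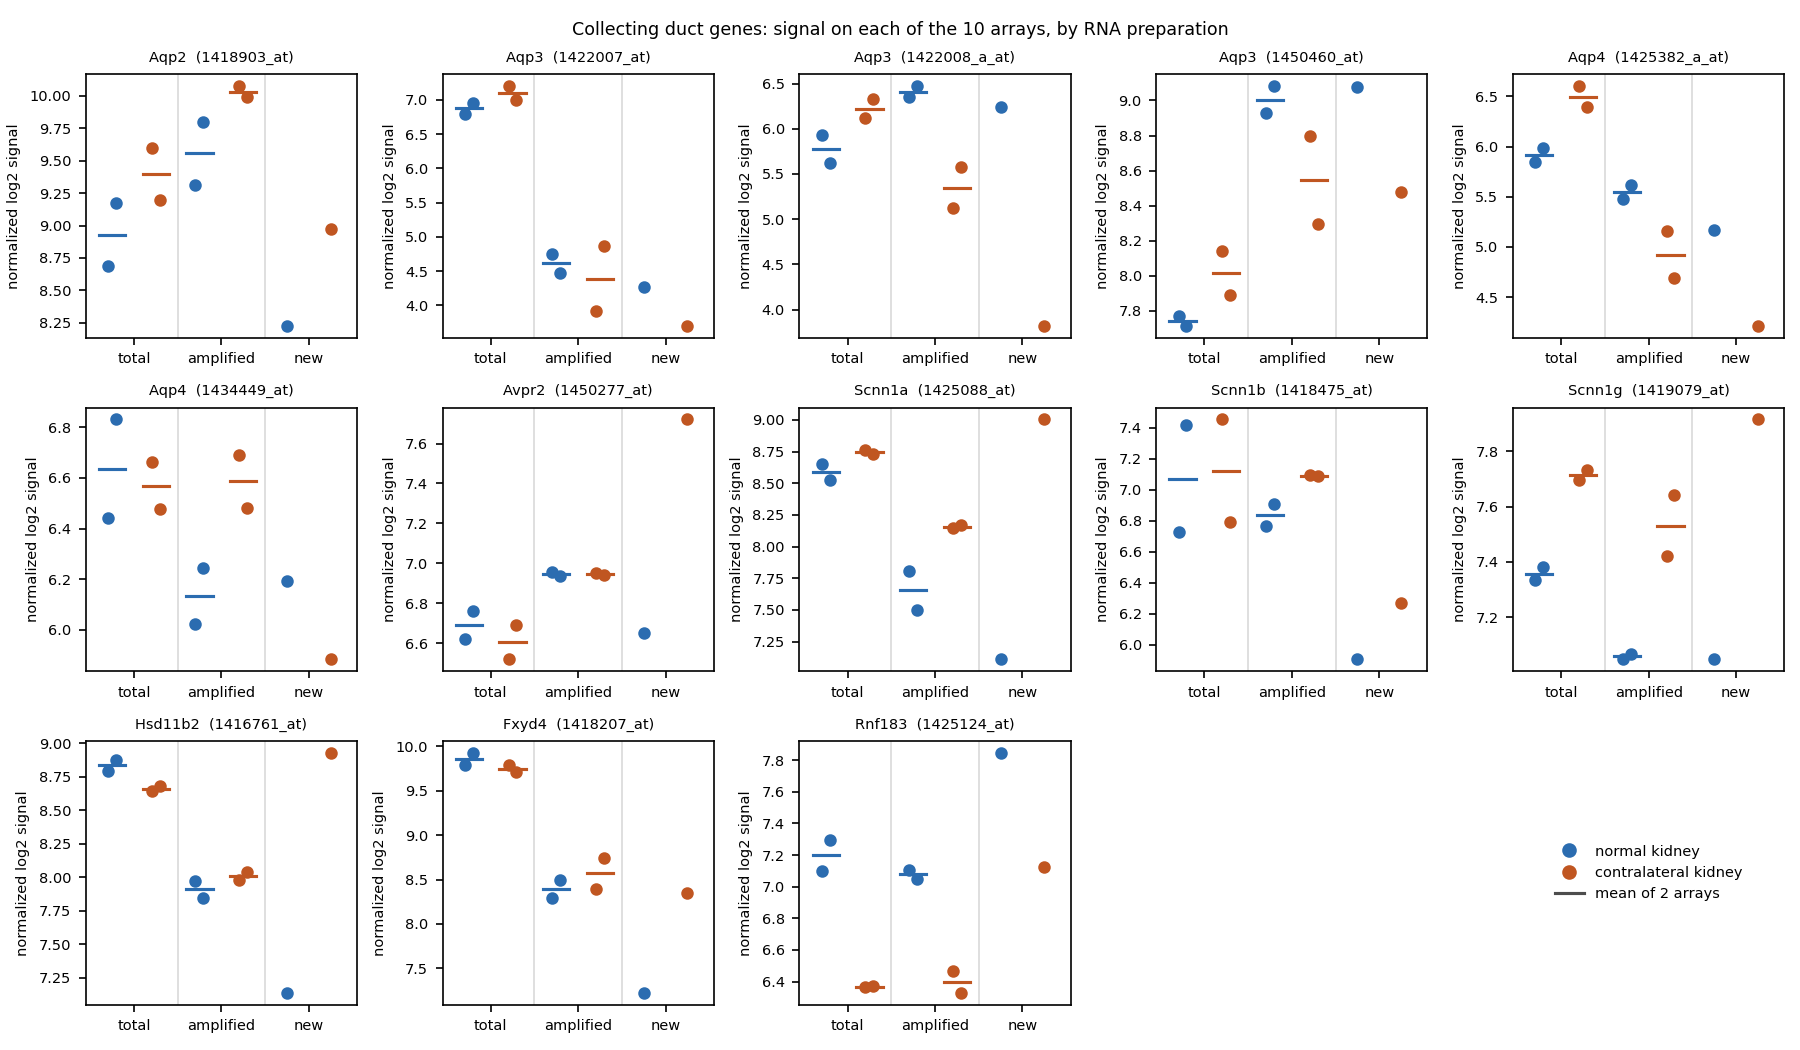
Normalized log2 signal of each of the 13 probe sets (one panel each, with its own vertical range) on every array, grouped by total, amplified total and newly transcribed RNA; blue points are normal and orange points contralateral kidneys, and lines are means of 2 arrays. Scnn1g lies higher in contralateral kidneys and Rnf183 lower in all 3 preparations, while Aqp3 1422008_a_at is higher in contralateral total RNA and lower in the other 2 preparations.

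Of the 3 ENaC subunits, 2 rose in contralateral kidneys in amplified RNA, where 4.10% of all probe sets rose and 6.22% fell. Scnn1a, the alpha subunit, was 7.81 and 7.50 in normal and 8.15 and 8.17 in contralateral amplified RNA, a rise of 0.50 ± 0.13 (1.41-fold, adjusted p = 0.0345). In total RNA it was 8.65 and 8.53 against 8.76 and 8.73, a difference of 0.16 ± 0.13 (adjusted p = 0.635). The newly transcribed arrays gave 7.11 in the normal and 9.00 in the contralateral kidney, a 3.71-fold difference after normalization. The deposited intensities behind them were 229.7 in the normal and 217.6 in the contralateral kidney, on arrays whose medians were 70.3 and 18.6. After normalization, contralateral arrays were above normal ones without overlap in total and amplified RNA. Before it the order in total RNA was the other way, with deposited intensities of 458.6 and 428.6 in normal against 350.2 and 376.7 in contralateral kidneys. In amplified RNA they overlapped, at 225.4 and 188.9 against 196 and 376. The effects in amplified and total RNA differed by 0.34 ± 0.19, which did not pass (adjusted p = 0.375). The call in amplified RNA held in 10 of 18 alternatives. Among the alternatives that lost it were no filter on low values (adjusted p = 0.0525), no intensity trend (0.0654) and only the amplified arrays (0.0851). The rise in amplified RNA was lost without normal amplified array 2 (0.35, adjusted p = 0.282), contralateral amplified array 1 or 2 (adjusted p = 0.0767 and 0.0829) or normal total array 1 or 2 (adjusted p = 0.0514 and 0.0512), the last through the shared estimate of the spread.

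Scnn1g, the gamma subunit, had higher normalized signal in contralateral kidneys in every preparation and rose in amplified RNA. Total RNA gave 7.33 and 7.38 in normal and 7.70 and 7.73 in contralateral kidneys. Amplified RNA gave 7.05 and 7.07 against 7.42 and 7.64, and the newly transcribed arrays gave 7.05 against 7.91. After normalization the kidneys did not overlap even across preparations: the lowest of the 5 contralateral arrays, at 7.42, was above the highest of the 5 normal arrays, at 7.38. How many of all probe sets separated the 5 arrays of either kidney was not counted. Before normalization the kidneys were not separate for Scnn1g. Deposited intensities were 182.2 and 191.7 in normal against 164.6 and 183.6 in contralateral total RNA. They were 124.9 and 133.3 against 108.3 and 251.1 in amplified RNA, and 218.5 against 96.6 in newly transcribed RNA. The rise in amplified RNA was 0.47 ± 0.13 (1.39-fold, adjusted p = 0.0456), while 0.36 ± 0.13 in total RNA (adjusted p = 0.235) and 0.51 ± 0.13 over all preparations (adjusted p = 0.129) did not pass. The rise was called in 7 of 18 alternatives. Among those that lost it were cyclic loess (adjusted p = 0.0512), no filter on low values (0.0635), no intensity trend (0.0587) and only the amplified arrays (0.0888). The call in amplified RNA was lost without normal amplified array 1 or 2 or contralateral amplified array 2 (adjusted p = 0.203, 0.202 and 0.167), and without any 1 of the 4 total RNA arrays (0.0599 to 0.0630).

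The 250 bases before the Scnn1g start, chr7:121734229-121734478 on the + strand, are shown because its normalized signal separated the kidneys over all 10 arrays. They held none of the 4 motifs, which says only that those letters are not in this window.
Scnn1g: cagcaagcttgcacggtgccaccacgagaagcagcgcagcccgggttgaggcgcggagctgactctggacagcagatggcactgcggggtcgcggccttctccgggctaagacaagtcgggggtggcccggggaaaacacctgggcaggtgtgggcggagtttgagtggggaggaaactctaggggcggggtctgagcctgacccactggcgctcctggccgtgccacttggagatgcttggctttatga

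Scnn1b, the beta subunit, overlapped between kidneys in total RNA, at 6.73 and 7.42 in normal and 7.45 and 6.79 in contralateral kidneys. Amplified RNA gave 6.76 and 6.91 against 7.09 and 7.09, and the newly transcribed arrays gave 5.91 and 6.27. The contralateral values were higher without overlap in amplified RNA, and higher in the single newly transcribed pair. The difference was 0.26 ± 0.25 in amplified RNA (adjusted p = 0.568) and 0.05 ± 0.25 in total RNA (adjusted p = 0.957), and neither passed. The 2 arrays of each total RNA group differed by more than the groups did.

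Hsd11b2, the enzyme that inactivates glucocorticoids in principal cells, and Fxyd4, the sodium pump regulator, did not pass in replicated RNA and had their widest gap between the single newly transcribed arrays. Hsd11b2 was 8.79 and 8.88 in normal and 8.64 and 8.68 in contralateral total RNA, and 7.97 and 7.85 against 7.98 and 8.04 in amplified RNA. Its newly transcribed arrays gave 7.14 and 8.93, a 3.46-fold higher value in the contralateral kidney, from deposited intensities of 233.8 and 205.1. The contralateral arrays were thus lower without overlap in total RNA and higher in the other preparations, by a narrow margin in amplified RNA, with differences of -0.17 ± 0.11 (adjusted p = 0.529) and 0.10 ± 0.11 (adjusted p = 0.644) in total and amplified RNA. Fxyd4 was 9.79 and 9.93 in normal and 9.79 and 9.71 in contralateral total RNA, 8.29 and 8.50 against 8.39 and 8.75 in amplified RNA, and 7.23 against 8.35 in the newly transcribed arrays, 2.18-fold higher in the contralateral kidney, where the deposited intensity was 133.2 against 250.8. Its groups overlapped in both replicated preparations, and its differences were -0.11 ± 0.14 (adjusted p = 0.774) and 0.17 ± 0.14 (adjusted p = 0.484).

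Rnf183, the ubiquitin ligase, was the member with lower contralateral signal in all 3 preparations and no overlap in total or amplified RNA. It was chosen for this, and the values are a description. Its signal was 7.10 and 7.30 in normal and 6.37 on both contralateral arrays of total RNA. Amplified RNA gave 7.11 and 7.05 against 6.47 and 6.33. The newly transcribed arrays gave 7.85 and 7.12, each above all 4 other arrays of the same kidney. The differences were -0.83 in total, -0.68 in amplified and -0.72 in newly transcribed RNA, or 1.78-fold, 1.60-fold and 1.65-fold lower. In deposited intensities these were 154.9 and 181.2 against 64.0 and 67.3 in total RNA, and 394.4 against 53.5 in newly transcribed RNA, where the contralateral array was also the dimmest of the series. Over the alternatives run, the total RNA difference stayed between -0.93 and -0.70, the amplified one between -0.77 and -0.57 and the newly transcribed one between -0.90 and -0.65.

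RefSeq gives 2 starts for Rnf183, and both windows are shown because its values separate the kidneys in the other direction. In the first, chr4:62435251-62435500 on the - strand, TGGAAA was matched on the reverse strand 9 bases before the start. In the second, chr4:62434641-62434890 on the - strand, AGAACA was matched on the gene's strand 94 bases before the start.
Rnf183 first start: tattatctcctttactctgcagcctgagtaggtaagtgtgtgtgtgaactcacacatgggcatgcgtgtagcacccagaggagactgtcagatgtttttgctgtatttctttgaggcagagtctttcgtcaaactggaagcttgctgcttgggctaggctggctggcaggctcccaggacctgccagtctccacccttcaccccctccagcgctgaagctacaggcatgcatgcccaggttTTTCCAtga
Rnf183 second start: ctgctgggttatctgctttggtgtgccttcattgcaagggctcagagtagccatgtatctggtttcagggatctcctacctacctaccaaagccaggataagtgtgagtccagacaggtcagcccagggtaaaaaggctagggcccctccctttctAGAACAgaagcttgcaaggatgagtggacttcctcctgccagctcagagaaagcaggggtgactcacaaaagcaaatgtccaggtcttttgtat
TGGAAA was held by 18.6% of all windows. Among the other members' windows, AGAACA was matched in Avpr2, TATAAA (in 12.4% of all windows) was matched in Aqp3 and Avpr2, and the windows of Fxyd4 and Scnn1b held none of the 4.

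**Figure D2:**
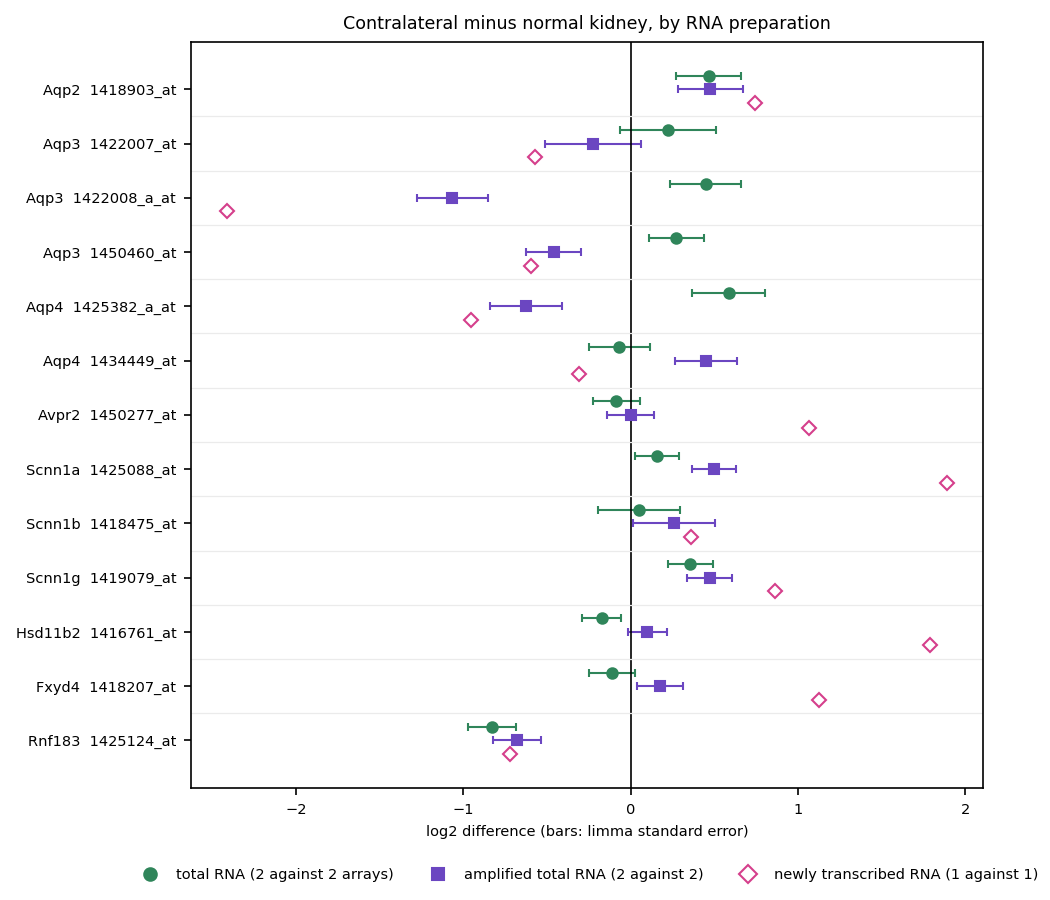
Contralateral minus normal log2 difference of each probe set in total RNA (circles), amplified total RNA (squares) and newly transcribed RNA (open diamonds, 1 array per kidney and no error); bars show the standard error from limma. Scnn1a and Scnn1g lie right of 0 in all 3 preparations, the 3 Aqp3 probe sets lie right of 0 in total RNA and left of it otherwise, and Rnf183 lies left throughout.

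Counted over the 12 probe sets of the 9 genes other than Rnf183, 0 rose and 0 fell over all preparations, where 0.383% of all tested probe sets rose and 0.0589% fell. In total RNA again 0 rose and 0 fell, against 1.58% and 0.331% of all probe sets. In amplified RNA 2 rose (Scnn1a and Scnn1g) and 1 fell (Aqp3 1422008_a_at), against 4.10% higher and 6.22% lower among all probe sets. The median difference of the 12 was 0.19 over all preparations, 0.19 in total RNA and 0.14 in amplified RNA, beside medians of -0.0045, -0.01 and 0.02 over all probe sets tested. For the difference between the effects in amplified and total RNA, 0 were higher and 2 lower, against 0.641% and 3.82% of all. In newly transcribed RNA, where single arrays allow no test, 4 of the 12 were more than 2-fold higher in the contralateral kidney (Scnn1a, Hsd11b2, Fxyd4 and Avpr2, all 4 with a lower deposited intensity there) and 1 was more than 2-fold lower (Aqp3 1422008_a_at). Among all probe sets 14.4% were past 2-fold higher and 18.5% past 2-fold lower there. The median of the 12 was 0.55 against 0.0016 over all, and with array medians scaled in place of quantile normalization 3 of them were past 2-fold instead of 5.

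The members also differed between the RNA preparations. Between amplified and unamplified total RNA, both kidneys included, 2 of the 13 probe sets were higher and 4 lower, where 20.7% of all probe sets were higher and 17.6% lower. Aqp2 was higher in amplified RNA by 0.63 ± 0.17 (adjusted p = 0.0151), a call lost without normal amplified array 2, normal total array 1 or contralateral total array 2 (adjusted p = 0.0559, 0.0546 and 0.0514). Aqp3 1450460_at was higher by 0.90 ± 0.20 (adjusted p = 0.00615), while 1422007_at of the same gene was lower by -2.49 ± 0.23 (5.61-fold, adjusted p = 7.02e-05). These 2 probe sets of 1 gene thus moved apart between the preparations. The remaining probe set, 1422008_a_at, was higher in amplified RNA of normal kidneys alone (0.64, adjusted p = 0.0156) and lower in that of contralateral kidneys alone (-0.88, adjusted p = 0.0190). Fxyd4 was lower by -1.32 ± 0.21 (2.50-fold, adjusted p = 0.000917), and its 4 total RNA arrays, from 9.71 to 9.93, all lay above its 4 amplified arrays, from 8.29 to 8.75. Aqp4 1425382_a_at was lower by -0.97 ± 0.28 (adjusted p = 0.0199), a call lost without contralateral amplified array 2 (adjusted p = 0.0647) or contralateral total array 1 or 2 (0.0646 and 0.0622). In normal kidneys alone it was lower by -0.36 (adjusted p = 0.132), in contralateral kidneys alone by -1.57 (adjusted p = 0.00126). Scnn1a was lower by -0.76 ± 0.26 (adjusted p = 0.0409), a call lost on leaving out any 1 of the 8 replicated arrays except contralateral total array 2 (adjusted p = 0.0554 to 0.120). Hsd11b2 was at the edge, with -0.79 ± 0.29 (adjusted p = 0.0513), and passed without either newly transcribed array (adjusted p = 4.30e-05 and 5.02e-05). Rnf183 did not pass, at -0.04 ± 0.13 (adjusted p = 0.809). With array medians scaled in place of quantiles, the median of all probe sets moved from 0.04 to 0.20 and the share of calls that were higher from 54.1% to 70.1%; Scnn1a then did not pass (-0.43, adjusted p = 0.168).

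Newly transcribed RNA was set against amplified total RNA, both kidneys included. Of the 13 probe sets 1 was higher and 2 lower, where 11.9% of all were higher and 16.7% lower. Rnf183 was higher in newly transcribed RNA by 0.75 ± 0.15 (1.68-fold, adjusted p = 0.00623). Aqp2 was lower by -1.19 ± 0.21 (2.29-fold, adjusted p = 0.00259), and both its newly transcribed arrays lay below all 4 amplified arrays. Scnn1b was lower by -0.88 ± 0.24 (adjusted p = 0.0226). Each call of Rnf183 and Aqp2 held in all 17 alternatives, and that of Scnn1b in 12 of 17; it was lost without normal amplified array 2, contralateral amplified array 1 or 2, or the normal newly transcribed array (adjusted p = 0.0541, 0.0526, 0.0546 and 0.0513), and with the replicate number as a block (adjusted p = 0.0618). For Scnn1a and Hsd11b2 the 2 newly transcribed arrays lay on opposite sides of amplified RNA: without the contralateral one, Scnn1a was lower by -0.63 (adjusted p = 0.0180) and Hsd11b2 by -0.84 (adjusted p = 0.00170), and without the normal one they were higher by 0.93 (adjusted p = 0.00157) and 0.99 (adjusted p = 0.000414).

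**Figure D3:**
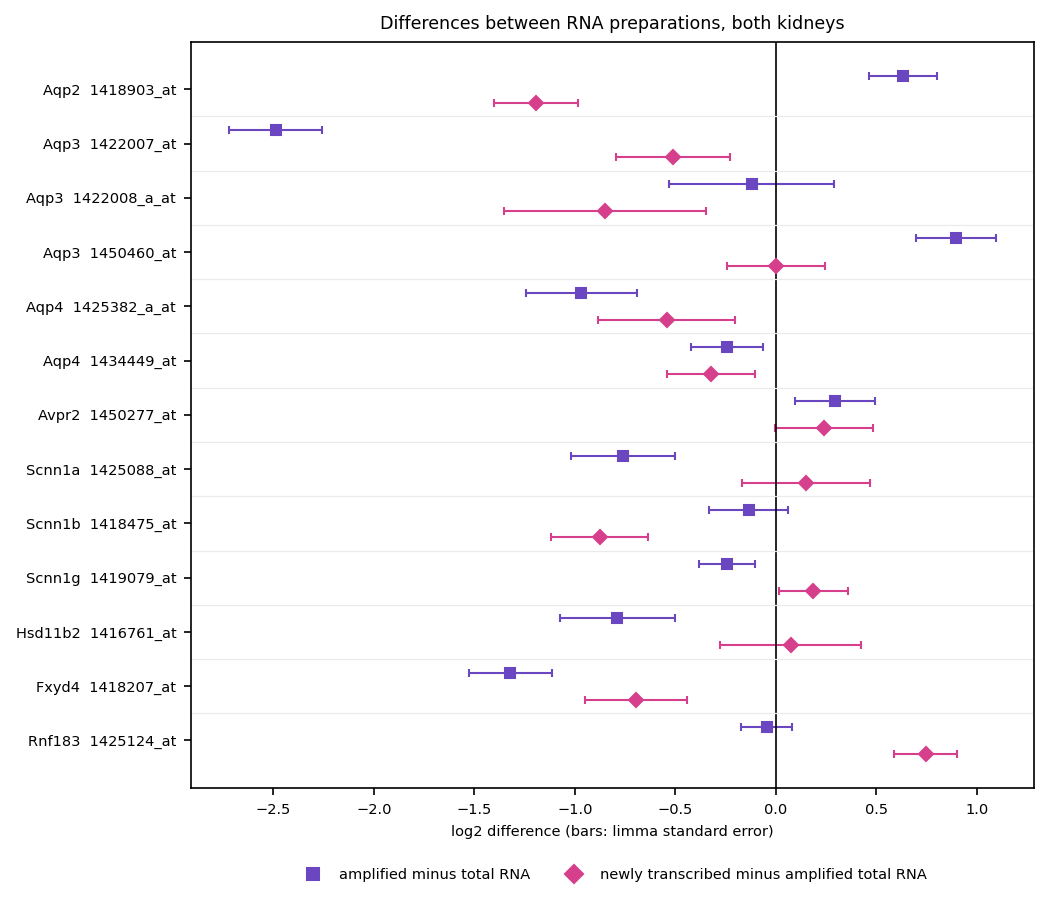
Log2 difference of each probe set between amplified and unamplified total RNA (squares) and between newly transcribed and amplified total RNA (diamonds), both kidneys together; bars show the standard error from limma. Aqp3 1422007_at lies lowest in the first comparison at -2.49 and Aqp3 1450460_at highest at 0.90; in the second, Rnf183 is the one clearly right of 0 and Aqp2 is lowest.

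The genes whose signal ran most like that of Aqp2 over the 10 arrays, among tested probe sets of other genes, were Bcap29 (Pearson r = 0.97), Pxmp2 (0.95), Gpaa1 (0.92), Sft2d2 (0.92) and Afg3l2 (0.91). For Rnf183 they were Gjb2 (r = 0.96), Cyp27b1 (0.96), Spsb4 (0.94), Glyctk (0.93) and Mllt3 (0.92). No member was among either set. All 5 genes like Rnf183 had lower contralateral signal in each preparation, from -1.04 for Gjb2 and -1.80 for Cyp27b1, the enzyme that activates vitamin D, to -0.31 for Mllt3 in total RNA. Since they were picked for running like Rnf183 over the same arrays, that direction follows from the choice. These correlations are descriptions over 10 arrays that share preparation and scaling.

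Other genes of the same pathways were listed by function. Of 17 vasopressin signalling genes (G protein, adenylate cyclases, protein kinase A subunits, prostaglandin receptors, vesicle fusion proteins and a urea transporter), 12 could be tested, and 0 rose or fell in any tested comparison of the kidneys. Their median difference was -0.05 in total and 0.06 in amplified RNA. The largest differences in amplified RNA were 0.51 for Ptger4, a prostaglandin E2 receptor (adjusted p = 0.0736), and -0.43 for Prkaca, a catalytic subunit of protein kinase A (adjusted p = 0.0769).

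Among 19 genes of aldosterone action and sodium channel control, 15 could be tested. Read by each gene's probe set of highest mean, 1 rose in total and 1 in amplified RNA and 0 fell. Tsc22d3, a steroid-induced regulator that supports ENaC, was 7.43 and 7.64 in normal and 9.76 and 8.84 in contralateral total RNA. It rose by 1.76 ± 0.33 (adjusted p = 0.0249), with 1.32 from a second probe set (adjusted p = 0.0201) and 0.24 from the remaining one (adjusted p = 0.584). The rise of 1.76 was called in 13 of 18 alternatives. The call was lost without normal total array 1 or 2 or contralateral total array 1, where the difference was 1.655, 1.87 and 1.30. On the newly transcribed arrays this probe set of Tsc22d3 was lower in the contralateral kidney by -1.60. Its other probe sets did not share that fall, with -0.06 for the second and 1.20 for the remaining one. Sgk1, the aldosterone- and glucocorticoid-induced kinase that keeps ENaC at the membrane, did not pass in total or amplified RNA. Its signal was at most 8.35 in normal total RNA against 9.62 and 8.95 in contralateral total RNA, a difference of 1.11 (adjusted p = 0.0559). In amplified RNA its difference was 0.09 (adjusted p = 0.867), and that of Tsc22d3 was 1.04 (adjusted p = 0.0721). In newly transcribed RNA it was 10.73 in the normal and 8.82 in the contralateral kidney. Nedd4l, the ubiquitin ligase that removes ENaC from the membrane, rose in amplified RNA by 0.56 ± 0.14 (adjusted p = 0.0323), from 8.70 and 8.60 to 9.31 and 9.10. This rise was called in 11 of 18 alternatives. That call was lost without normal amplified array 1 or 2, contralateral amplified array 1, or normal total array 1 or 2 (adjusted p = 0.114, 0.204, 0.130, 0.0523 and 0.0521). Other probe sets of listed genes passed where the one of highest mean did not. For Wnk1, a kinase of sodium transport, another probe set rose in total RNA by 0.86 (adjusted p = 0.00748) and fell in amplified RNA by -1.61 (adjusted p = 3.59e-05), while its brighter probe set gave 0.13 in both. In amplified RNA another probe set of Nedd4, a ubiquitin ligase related to Nedd4l, fell by -2.35 (adjusted p = 6.51e-05) beside -0.06. Another probe set of Nr3c1, the glucocorticoid receptor, fell there by -0.59 (adjusted p = 0.0197) beside -0.37, and one of Usp2, a deubiquitinating enzyme, by -0.53 (adjusted p = 0.0134) beside 0.15. The probe sets of Wnk1 and Usp2 thus differed in sign in amplified RNA.

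Of 7 genes of the tonicity response, through which medullary cells take up small solutes, 4 could be tested. In amplified RNA Slc38a2, an amino acid carrier, rose by 0.93 ± 0.14 (adjusted p = 0.00161) and Slc6a6, the taurine carrier, fell by -2.03 ± 0.17 (adjusted p = 5.39e-05). Slc6a6 was 8.69 and 8.91 in normal and 6.50 and 7.03 in contralateral amplified RNA, but 8.04 and 7.82 against 8.68 and 8.59 in total RNA. The effects in the 2 preparations differed by -2.73 (adjusted p = 0.000152), and a second Slc6a6 probe set was at -0.41 in amplified RNA (adjusted p = 0.257). Nfat5, the factor that drives this response, was at -0.04 in total and -0.09 in amplified RNA.

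Other principal cell and duct epithelium genes numbered 11, all tested. Tfcp2l1, a transcription factor of the collecting duct, rose in total RNA by 0.44 ± 0.10 (adjusted p = 0.0485) and in amplified RNA by 0.46 ± 0.10 (adjusted p = 0.0126). Its signal was 9.87 and 9.76 in normal and 10.22 and 10.29 in contralateral total RNA, and 10.13 and 9.97 against 10.54 and 10.47 in amplified RNA, with no overlap. On the newly transcribed arrays it was 11.08 in the normal and 10.38 in the contralateral kidney, the opposite order. The call in total RNA held in 5 of 18 alternatives and that in amplified RNA in 15 of 18. The other 10 genes did not pass, and the list's median was -0.04 in total and 0.07 in amplified RNA.

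Markers of other cells a kidney sample can hold were read beside these values. Of 6 tested genes of intercalated cells, the neighbours of principal cells, Atp6v1b1, a proton pump subunit, fell in amplified RNA (-0.57, adjusted p = 0.0427), a call kept in 8 of 18 alternatives. Of 6 tested proximal tubule genes, Lrp2, the endocytic receptor megalin, fell in amplified RNA (-0.59, adjusted p = 0.0148), with -0.16 from its other probe set. The 6 thick limb and distal tubule genes, the 1 tested urothelial gene and the 2 tested genes of fat and adrenal gland showed 0 calls in limma's total and amplified RNA comparisons. As a share of the array's signal, the proximal genes summed to 0.304% and 0.330% in normal and 0.312% and 0.318% in contralateral total RNA, and to 0.280% and 0.307% against 0.256% and 0.285% in amplified RNA. The intercalated genes summed to 0.0310% and 0.0388% in normal and 0.0336% and 0.0354% in contralateral total RNA, and to 0.0376% and 0.0472% against 0.0429% and 0.0473% in amplified RNA. The ranges of both lists overlapped between the kidneys in each of those preparations. The 3 genes of fat and adrenal gland summed to 0.00342% and 0.00296% in normal and 0.00380% and 0.00393% in contralateral total RNA, to 0.00220% and 0.00158% against 0.00278% and 0.00275% in amplified RNA, and to 0.00119% against 0.00458% in newly transcribed RNA. They were thus higher in contralateral kidneys without overlap in total and amplified RNA, and higher in the single newly transcribed pair. On the newly transcribed arrays Adipoq, a fat cell hormone, was 4.11-fold and Star, a steroid synthesis gene of the adrenal, 2.76-fold higher in the contralateral kidney. The 5 urothelial genes summed to 0.00357% and 0.00353% in normal and 0.00337% and 0.00333% in contralateral total RNA, overlapped in amplified RNA, and reached 0.00191% against 0.00507% in newly transcribed RNA. None of the listed markers was at 0 on any array. The part of other cells in the members' differences was not tested.

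**Figure D4:**
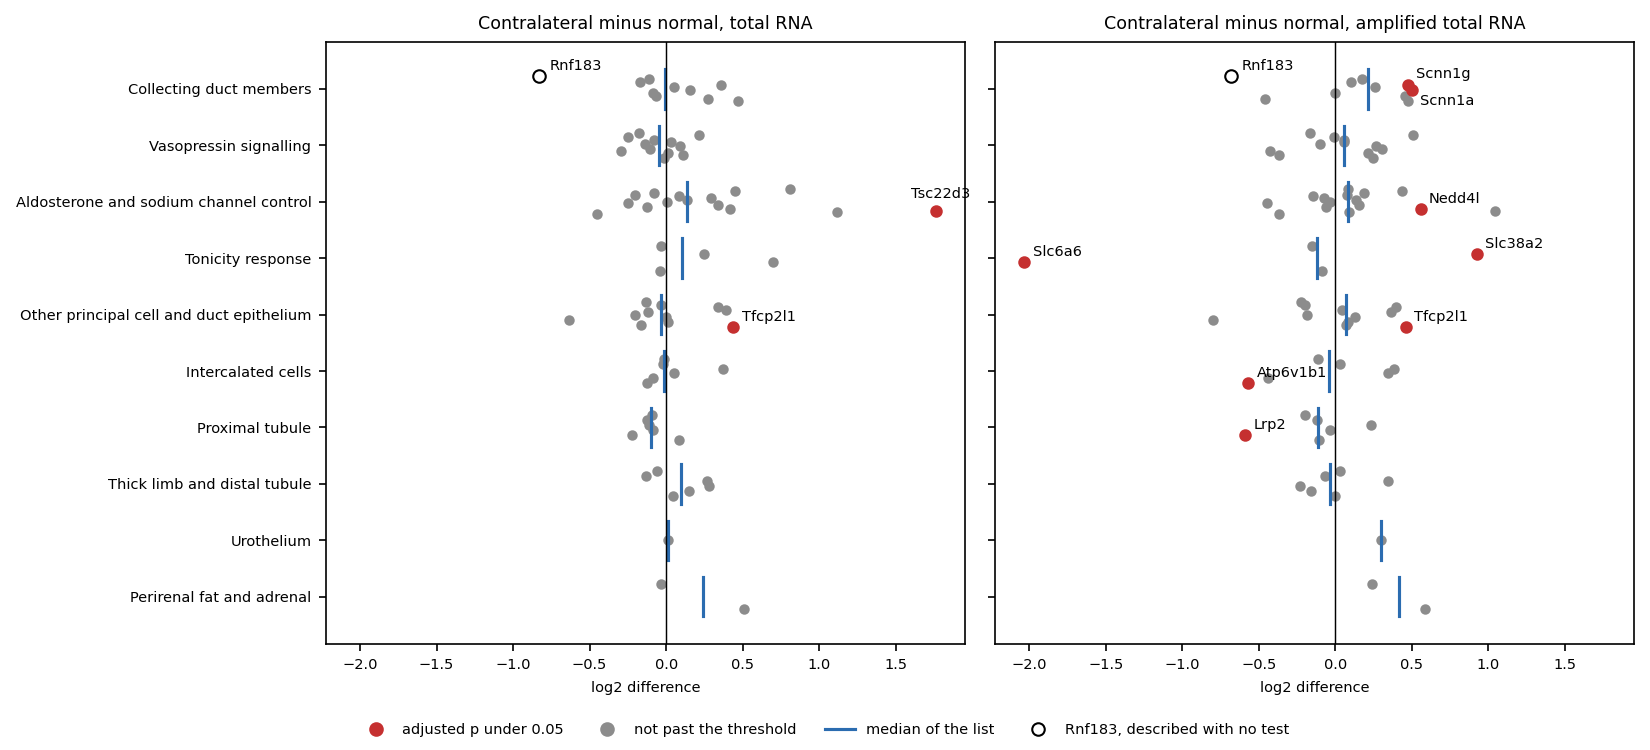
Contralateral minus normal log2 difference of the tested genes of each list (1 probe set per gene) in total RNA, left, and amplified total RNA, right; red points passed an adjusted p of 0.05, grey points did not, blue bars are list medians and the open circle is Rnf183, described without a test. Tsc22d3 and Tfcp2l1 pass in total RNA, and Slc6a6 at -2.03 is the lowest point in amplified RNA.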

How the data were processed

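RNA from 10 mouse kidney samples was measured on one-colour Affymetrix arrays. The authors deposited 1 linear signal intensity per probe set and array; the RNA was linearly amplified and biotin-labelled by a T7-based strategy, per the labels' protocols, which are worded alike for all samples. How probes were summarised or scaled is not stated in those labels.

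Here 64 control probe sets were removed, 11.8 (the 25th percentile of all values) was added before taking log2, and arrays were quantile normalized. Probe sets with a mean above the 40th percentile were tested, 13575 in all. Fits used limma 3.58.1 in R 4.3.3 (lmFit, eBayes with trend) on all 10 arrays: kidney plus preparation (6 residual degrees of freedom) over all preparations and between preparations, and 6 group means (4 residual degrees of freedom) within a preparation. The fits were tested on simulated data. The newly transcribed difference has 1 array per group and no test. The labels do not say whether arrays with one number share a mouse, so p-values measure the spread between these arrays. The number of arrays limits the precision.

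Members and lists were chosen with earlier results of these data known. The text names all members. Of other lists it names genes that passed in a contralateral comparison, else up to 3 with the largest difference, each by its probe set of highest mean. Sgk1 and Nfat5 were added after their values were seen. Wnk1, Nedd4, Nr3c1 and Usp2 were added because another of their probe sets passed. Symbols come from the platform annotation. Alternatives were other offsets, normalizations, filters and models, and leaving out each array.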

Additional observations from a re-analysis of the deposited data

Results flagged for a closer look

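For 2 probe sets the contralateral effect differed between amplified and total RNA by the test of that difference itself. For Aqp3 1422008_a_at the difference was -1.51 on the log2 scale (adjusted p = 0.0152), from 0.45 in total RNA to -1.07 in amplified RNA, each with 2 arrays per kidney. For Aqp4 1425382_a_at it was -1.21 (adjusted p = 0.0488), from 0.59 to -0.63. The calls held in 13 and 6 of 18 alternatives, and with no filter on low values neither passed (adjusted p = 0.056 and 0.123). The other Aqp4 probe set was at 0.52 (adjusted p = 0.340), the opposite sign. The other Aqp3 probe sets, 1422007_at and 1450460_at, were at -0.45 and -0.73 and did not pass (adjusted p = 0.62 and 0.118). Among all tested probe sets 3.82% were lower and 0.641% higher in this comparison.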

How the results depend on the processing

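With 1 or 2 arrays per group, many counts moved with single arrays, and the cause was not tested. Of all probe sets, those called over all preparations (60 in the report's setting) numbered 26 with the replicate block, 321 without the newly transcribed arrays and 12 to 329 on leaving out 1 array. In total RNA 259 were called, but 87 with no filter on low values, 145 with no intensity trend and 48 to 374 on leaving out 1 array. Leaving out 1 array gave 515 to 1416 in amplified RNA (1400 with all), 277 to 694 for the difference between these effects (606), 4035 to 7911 for amplified against total RNA (5209) and 2801 to 6729 for newly transcribed against amplified RNA (3885). Of the members, 3 were called in amplified RNA, but 1 with no filter, 1 with no trend, 1 with only amplified arrays and 0 to 3 on leaving out 1 array. For the difference between effects, 2 became 1 with an offset of 1, median scaling or cyclic loess, 0 with no filter, and 0 to 3 on leaving out 1 array. The 3 called between newly transcribed and amplified RNA became 2 to 6, and the 5 past 2-fold in newly transcribed RNA became 3 with median scaling. Aqp3 1422008_a_at between amplified and total RNA reversed to 0.64 in normal kidneys only. Scnn1a and Hsd11b2 between newly transcribed and amplified RNA ranged from -0.63 to 0.93 and from -0.84 to 0.99 on leaving out 1 array.

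Same-numbered arrays correlated by -0.0701 to 0.0998 in their deviations, over 6 pairs of groups, so the numbers were not shown to pair arrays. With the replicate number as a block, 1 member was called for the difference between effects: Aqp4 1425382_a_at was lost there (adjusted p = 0.0568), as were Scnn1a between amplified and total RNA (0.0601) and Scnn1b between newly transcribed and amplified RNA (0.0618).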
